A study of Mus musculus with 23 samples.

Results

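The genes described here are 10 neighbours of H3f3a on mouse chromosome 1, read as a check for local effects of the edited H3f3a allele. H3f3a encodes the histone variant H3.3, and the study changed glycine 34 of that protein. In order along the chromosome the neighbours are Coq8a, Psen2, Gm5069, Itpkb, Parp1, Lin9 and Acbd3 at coordinates below H3f3a, and Lefty2, Lefty1 and Tmem63a above it. They are named genes within about 1 Mb of H3f3a, but not all of them, and the choice was made with earlier results of these data known. All 10 had a row among the 39017 genes of the deposited count table. Of these, 9 matched by symbol, and Coq8a stood under its older symbol Adck3 and was matched by its Ensembl identifier. The GENCODE M21 annotation of GRCm38 places 60 genes other than H3f3a within 1 Mb, of which 35 had a row in the table. The 25 that are not among the 10 neighbours are set beside them below.

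Ribosome-depleted total RNA from pulverised cortex of 22 mice was sequenced in 23 libraries. At 10 weeks there were 3 heterozygotes for glycine 34 to arginine (G34R, labelled Hf3fa+/G34R), 3 for valine (G34V, Hf3fa+/G34V) and 2 for tryptophan (G34W, Hf3fa+/G34W), against 6 wild types (WT, Hf3fa+/+). At postnatal day 7 there were 4 G34R heterozygotes (H3f3a G34R/+) against 4 WT animals (H3f3a +/+). By their sex labels, all animals at 10 weeks were male apart from the female G34W replicate 2. At day 7 there were 2 males and 2 females of either genotype. The title of G34W replicate 2 begins with M, as the titles of the males do, so its labels conflict. The sex label was used here. A sex term at 10 weeks therefore fits that animal alone, which is nearly the same as leaving it out. Every mutant kept 1 unedited H3f3a allele, and no group carried another allele or a treatment in the labels. The sources used here give neither the strain, nor how the alleles were made, nor how many founders lie behind each. Replicates carry separate animal numbers in the labels, and 1 WT animal at 10 weeks (replicate 3) had 2 libraries. These were summed, except in alternatives fitted by library.

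Total counts per library ranged from 32283004 to 90067111 at 10 weeks and from 28414057 to 53520391 at day 7. The 8 neuronal markers examined were detected in every animal, with summed levels of 4961 to 6426 CPM (counts scaled to library size) at 10 weeks and 3862 to 4414 CPM at day 7. Markers of choroid plexus, a tissue other than cortex, varied far more between animals, from 15.6 to 1061 CPM at 10 weeks and from 4.66 to 458 CPM at day 7. The 10-week libraries fell into 2 sets by their share of mitochondrial protein-coding counts, 6 libraries at 0.885% to 1.03% and 9 at 1.12% to 1.36%. All G34R libraries were in the low set and all G34V and G34W libraries in the high set, while WT libraries were in both. The libraries of WT replicate 3 fell in different sets, at 0.933% and 1.27%. Alternatives that used the sets were fitted by library, so with the set as a block that animal entered as 2 samples.

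H3.3 is laid down outside replication at active genes, enhancers and repeats, and glycine 34 lies beside lysine 36, a residue whose methylation marks transcribed chromatin. Neighbours of an edited gene sit on the same chromosome as the edit and are inherited with it. Lefty1 and Lefty2 encode secreted antagonists of Nodal, a ligand of the TGF-beta family, and are best known for setting left and right in the embryo. Tmem63a encodes a mechanically gated ion channel whose human counterpart is linked to disorders of myelination.

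The edited codon lies in the second exon of H3f3a. It is shown in capitals, with codons numbered without the initiator methionine, in the unedited GENCODE M21 coding sequence of GRCm38 chr1:180811799-180811854, minus strand.
H3f3a, reference: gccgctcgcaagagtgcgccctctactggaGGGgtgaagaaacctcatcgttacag
Lefty1 and Lefty2 are near copies, and the counts of either can hold reads of the other. Their 1104 coding bases align without a gap and are 91.8% identical. Of all 100-base stretches, 4.80% of those in the Lefty1 transcript occur in the Lefty2 transcript and 3.07% of those in Lefty2 occur in Lefty1. For 50-base stretches the shares are 17.9% and 11.6%. The sources used here give neither the read length nor how reads that match both genes were treated.

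Gm5069, annotated as a transcribed processed pseudogene, runs on the minus strand and starts inside the first exon of Itpkb, which runs on the plus strand. The exons overlap by 66 bases. The RefSeq promoter window of Itpkb (GRCm38.p6, chr1:180330356-180330505, plus strand) is shown up to 30 transcribed bases, with the first 21 of the bases in both first exons in capitals.
Itpkb, promoter: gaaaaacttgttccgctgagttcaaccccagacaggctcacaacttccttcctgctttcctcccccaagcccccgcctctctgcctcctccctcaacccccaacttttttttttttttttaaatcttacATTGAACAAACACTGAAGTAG
The sources used here do not say whether the authors counted by strand, so reads from these 66 bases cannot be told apart. The same holds for the 157 exon bases that Tmem63a shares with the antisense gene 2210411M09Rik, the 366 that Coq8a shares with Cdc42bpa on the other strand, and the exon bases that H3f3a shares with Gm17275 (638) and H3f3aos (160).

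H3f3a itself was measured first. Gene counts do not separate the edited from the unedited allele. H3f3a had 42.5, 45.4 and 41.4 CPM in G34R animals, 39.8, 43.5 and 41.2 CPM in G34V animals, and 45.8 and 38.4 CPM in G34W animals, against 41.5, 44.4 and 49.6 CPM (lowest, median, highest of 6) in WT animals at 10 weeks. These ranges overlapped, and no 10-week comparison called H3f3a, where called means a Benjamini-Hochberg adjusted p below 0.05, over all genes tested, in the quasi-likelihood test of edgeR. At day 7 the 4 G34R animals had 60.9, 59.3, 59.8 and 63.3 CPM, against 69.8, 70.1, 75.4 and 74.98 CPM in the 4 WT animals. The day-7 groups did not overlap, and H3f3a fell by 0.25 on the log2 scale in G34R (SE 0.04, adjusted p = 0.0428 in edgeR). The call was lost when any 1 of the 8 animals was left out, with adjusted p from 0.0952 to 0.211.

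Levels differed widely among the 10 neighbours. Per kilobase of exon, in WT cortex at 10 weeks, Parp1 was highest at 17.0 CPM per kb, followed by Coq8a (7.45), Tmem63a (5.95), Acbd3 (4.77), Psen2 (3.22), Itpkb (2.80), Gm5069 (2.11), Lefty1 (0.995), Lin9 (0.581) and Lefty2 (0.322). In WT cortex at day 7 the order was Parp1 (20.4), Acbd3 (5.002), Lefty2 (4.67), Psen2 (3.40), Coq8a (2.08), Itpkb (1.94), Gm5069 (0.986), Lin9 (0.682), Lefty1 (0.474) and Tmem63a (0.450). Lefty2 was thus the lowest of the 10 at 10 weeks and the third highest at day 7. All 10 passed the filter on low counts in all 3 fits.

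Lefty2 had the largest fold change of the 10 against WT in each substitution at 10 weeks. At 10 weeks it had 0.376, 0.340 and 0.198 CPM in G34R animals, 0.182, 0.135 and 0.107 CPM in G34V animals, and 0.421 and 0.199 CPM in G34W animals, against 0.531, 0.934 and 1.01 CPM (lowest, median, highest of 6) in WT animals. All 8 mutants lay below all 6 WT animals. The share of all genes tested that separate genotypes without overlap was not counted, for Lefty2 or any other gene here. In bulk cortex, fewer cells of a type and less RNA per cell cannot be told apart. The values rest on few reads, 28, 12 and 8 in G34R, 7, 6 and 5 in G34V, and 11 and 8 in G34W, against 23 to 83 in WT. Lefty2 fell in G34R by 1.43 on the log2 scale (SE 0.35, adjusted p = 0.0221) and in G34V by 2.56 (SE 0.41, adjusted p = 0.000965). In G34W the log2 fold change was -1.49 (SE 0.44), which did not pass (edgeR adjusted p = 0.105) but did with DESeq2 (0.0460). Over the mean of the 3 substitutions it fell by 1.83 (SE 0.28, adjusted p = 0.000307), a ratio to WT of 0.282 (95% interval 0.188 to 0.422).

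The Lefty2 result for G34V passed in each alternative that tested it, with adjusted p at most 0.0381. The result for G34R was lost when G34R replicate 1, 2 or 3 was left out, with adjusted p of 0.0523, 0.0641 and 0.130, and within the low mitochondrial set (log2 fold change -1.48, adjusted p = 0.0569). The 2 lowest WT animals, replicates 2 (0.531 CPM) and 3 (0.624 CPM), carry animal numbers next to those of the G34V animals. When neighbouring animal numbers were grouped into runs and the run was a block, the G34V log2 fold change was -2.04 (adjusted p = 0.0381) and the G34R one -1.64 (adjusted p = 0.0342). A filter of 1 CPM removed Lefty2 from the 10-week fit.

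Markers of microglia, the resident immune cells of the brain, were higher in mutants at 10 weeks. The sum of 7 such markers (Csf1r, Cx3cr1, P2ry12, Tmem119, Aif1, C1qa and C1qb) was 416 to 487 CPM in G34R, 306 to 399 CPM in G34V and 287 to 328 CPM in G34W, against 256 to 281 CPM in WT. All 8 mutants lay above all 6 WT animals. Of the 7, 6 rose in G34R, where 5.61% of all genes tested were called, 4 in G34V (4.25%), none in G34W (1.61%) and 5 over the mean of the substitutions (6.39%). C1qa, which encodes a chain of complement C1q, rose by 1.26 in G34R on the log2 scale (adjusted p = 8.17e-06) and by 0.71 in G34V (adjusted p = 0.00266). The sum of 8 genes known from disease-associated microglia was 72.8 to 87.4 CPM in G34R, 41.7 to 55.2 CPM in G34V and 39.5 to 41.2 CPM in G34W, against 24.8 to 42.1 CPM in WT, and 7, 7 and 5 of them rose in these substitutions. No marker of either list was at 0 in all animals of a group. At day 7 the microglial sum was 147 to 173 CPM in G34R, against 115 to 137 CPM in WT. Of the 7 markers 2 rose, where 0.308% of all genes tested were called. The part of these cells in the Lefty2, Lefty1, Tmem63a and Gm5069 results was not tested.

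At day 7, Lefty2 was abundant in both genotypes. It had 14.1, 9.61, 15.7 and 11.8 CPM in G34R animals, against 13.9, 11.5, 11.9 and 11.4 CPM in WT animals, with overlapping ranges and 419 to 652 reads per animal. The log2 fold change was 0.08 (95% interval -0.26 to 0.41, adjusted p = 0.959). The G34R effect at 10 weeks minus that at day 7 was -1.47 (SE 0.32, adjusted p = 0.0174). That difference was lost with limma-voom (adjusted p = 0.176), with males only (0.164) and without G34R replicate 3 at 10 weeks (0.0874). In WT cortex Lefty2 averaged 0.840 ± 0.208 CPM at 10 weeks (SD, n = 6) and 12.2 ± 1.15 CPM at day 7 (SD, n = 4), a log2 fold change of -3.86 (SE 0.17, adjusted p = 1.01e-15).

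**Figure D1:**
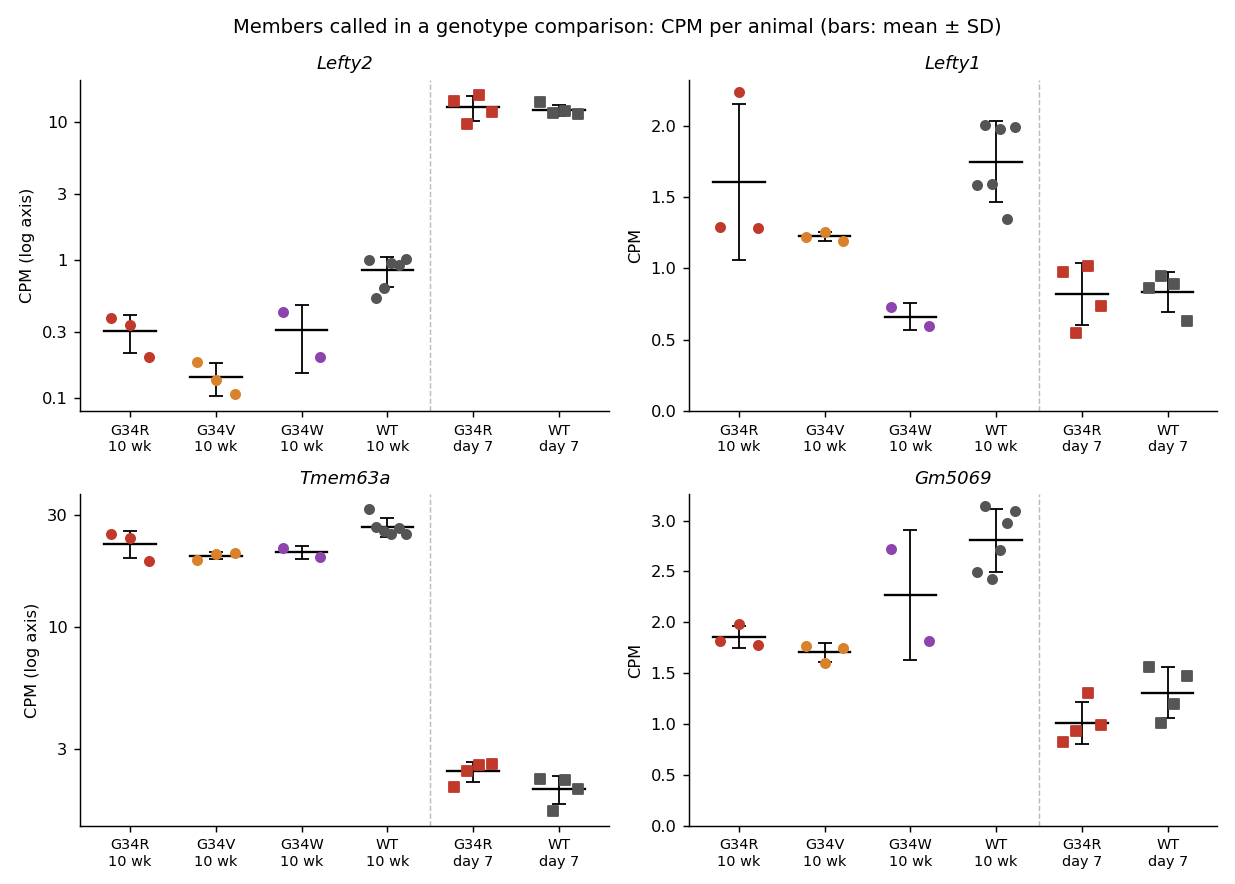
CPM per animal of the 4 neighbours called in at least 1 genotype comparison, by genotype and age (wk, weeks), with points for animals and bars for the mean ± SD; the axes of Lefty2 and Tmem63a are logarithmic. At 10 weeks the 8 mutants lie below the 6 WT animals for Lefty2 and Tmem63a, while at day 7 the genotypes overlap for all 4 genes.

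Lefty1, the near copy of Lefty2, did not follow the same order of genotypes. It had 1.29, 2.24 and 1.29 CPM in G34R animals, 1.22, 1.26 and 1.20 CPM in G34V animals, and 0.728 and 0.597 CPM in G34W animals, against 1.35, 1.78 and 2.01 CPM (lowest, median, highest of 6) in WT animals at 10 weeks. Both G34W animals and all G34V animals lay below every WT animal, while G34R replicate 2 lay above every one. Lefty1 fell in G34W by 1.42 on the log2 scale (SE 0.28, adjusted p = 0.0211). The log2 fold change was -0.51 in G34V (SE 0.22, adjusted p = 0.243) and -0.14 in G34R (SE 0.21, adjusted p = 0.796), neither called. Over the mean of the substitutions it fell by 0.69 (SE 0.17, adjusted p = 0.0176), a call lost with limma-voom (0.0768). The call was also lost with the sex label as a covariate or without G34W replicate 2. These are nearly 1 check, with log2 fold changes of -0.642 and -0.644.

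Between substitutions, Lefty1 was higher in G34R than in G34W by 1.27 on the log2 scale (SE 0.31, adjusted p = 0.0463). The G34W result was lost with limma-voom (adjusted p = 0.317) and with runs of animal numbers as a block (0.166). It was also lost without either G34W animal and with the sex label as a covariate. The sex covariate and the fit without G34W replicate 2 nearly coincide, both at a log2 fold change of -1.27. All G34R libraries were in the low mitochondrial set and all G34W libraries in the high one. The difference between G34R and G34W was lost with the library set as a block (adjusted p = 0.223), with runs of animal numbers as a block (0.566), with limma-voom (0.285), with the sex label as a covariate (0.159) and with only the groups compared (0.138). It was also lost when any of the 5 animals was left out, with adjusted p from 0.0589 to 0.160. Summed choroid plexus markers, none of the 8 called, were 446 to 741 CPM in G34R animals, 243 to 1061 CPM in G34V animals, and 15.6 and 204 CPM in the G34W animals, against 154 to 951 CPM in WT animals. Of the mutants, G34W replicate 1 alone lay below the WT range of these markers. The part of choroid plexus in the Lefty1 result was not tested.

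At day 7 Lefty1 had 0.977, 0.549, 1.01 and 0.737 CPM in G34R animals, against 0.862, 0.948, 0.894 and 0.628 CPM in WT animals. The ranges overlapped (log2 fold change -0.03, 95% interval -0.62 to 0.57, adjusted p = 0.994). In WT cortex Lefty1 was higher at 10 weeks than at day 7 by 1.07 on the log2 scale (SE 0.21, adjusted p = 0.000102), opposite in direction to Lefty2. With the 2 genes summed, the age change was -2.33 (adjusted p = 3.05e-13), since Lefty2 holds most of the reads at day 7. Summed, the 10-week genotype changes were -0.45 in G34R (adjusted p = 0.218, not called), -0.92 in G34V (adjusted p = 0.0116), -1.44 in G34W (adjusted p = 0.00976) and -0.94 over the mean of the substitutions (adjusted p = 0.000650).

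Other genes of the Nodal pathway, the ligands, coreceptors, receptors and SMAD factors on which the Lefty proteins bear, were counted too. Of 13 tested at 10 weeks, 1 fell and 1 rose in G34R, 1 fell in G34V and none was called in G34W, where 5.61%, 4.25% and 1.61% of all genes tested were called. Acvr1c, which encodes the receptor ALK7, averaged 43.9 ± 0.884 CPM in G34R and 43.5 ± 5.78 CPM in G34V (SD, n = 3 each), against 57.1 ± 4.51 CPM in WT (SD, n = 6). It fell by 0.38 in G34R (adjusted p = 0.0258) and by 0.39 in G34V (adjusted p = 0.0279) on the log2 scale. Gdf1, a ligand that pairs with Nodal, rose by 0.19 in G34R (adjusted p = 0.0330).

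Tmem63a lay below WT in all 8 mutants at 10 weeks. It had 24.8, 24.1 and 19.2 CPM in G34R animals, 19.3, 20.5 and 20.7 CPM in G34V animals, and 21.8 and 20.0 CPM in G34W animals, against 24.8, 26.02 and 31.7 CPM (lowest, median, highest of 6) in WT animals. The highest G34R animal and the lowest WT animal differed by less than 0.1 CPM. Tmem63a fell in G34V by 0.41 on the log2 scale (SE 0.09, adjusted p = 0.0133) and by 0.34 over the mean of the substitutions (SE 0.07, adjusted p = 0.00498), a ratio to WT of 0.792. The log2 fold change was -0.24 in G34R (SE 0.09, adjusted p = 0.153) and -0.36 in G34W (SE 0.10, adjusted p = 0.0975; 0.0388 with DESeq2). The G34V call was lost with runs of animal numbers as a block (adjusted p = 0.0625) and without G34V replicate 1 (0.0812) or 2 (0.0550), while the call over the mean of the substitutions passed in every alternative run.

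Markers of mature oligodendrocytes, the myelin-forming cells, moved with Tmem63a. The sum of 7 such markers (Mbp, Mog, Mag, Mobp, Cnp, Cldn11 and Ermn) was 2222 to 2883 CPM in G34R, 1894 to 2457 CPM in G34V and 2008 to 3423 CPM in G34W, against 2893 to 3888 CPM in WT at 10 weeks. All mutants lay below every WT animal except G34W replicate 1, which lay within the WT range. No marker of the list was at 0 in all animals of a group. Of the 7, none fell in G34R, where 2.66% of all genes tested were lower, 2 fell in G34V (2.68%), 1 in G34W (1.05%) and 5 over the mean of the substitutions (3.93%). Cldn11, which encodes a tight junction protein of myelin, fell by 0.60 in G34V on the log2 scale (adjusted p = 0.0173), and Ermn, a cytoskeletal protein of these cells, fell by 0.68 in G34W (adjusted p = 0.0235). The part of these cells in the Tmem63a result was not tested.

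**Figure D2:**
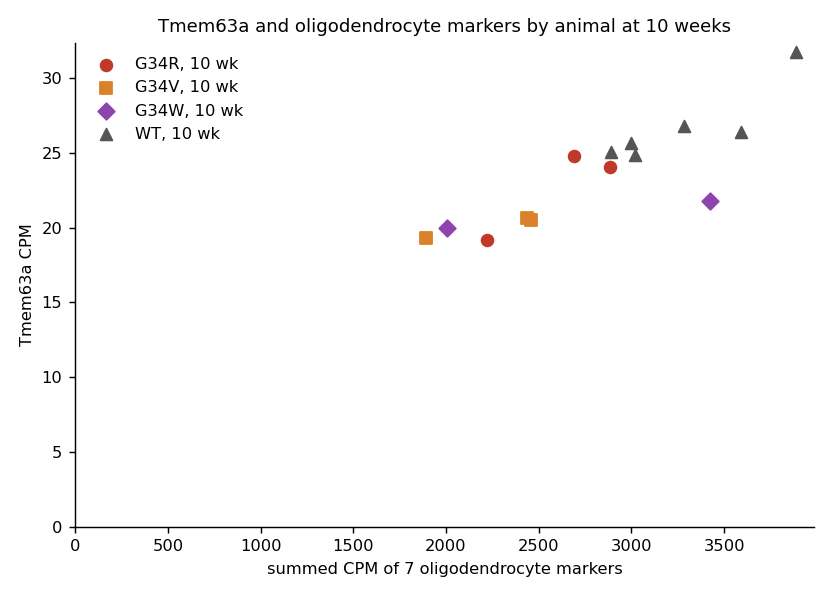
Tmem63a in CPM against the summed CPM of 7 oligodendrocyte markers in each of the 14 animals at 10 weeks, both axes linear from 0. The WT animal with the highest Tmem63a, 31.7 CPM, also has the highest marker sum, 3888 CPM, and 7 of the 8 mutants lie left of and below the 6 WT animals.

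The genes whose mean levels over the 6 groups ran closest to Tmem63a, out of 16998 with a mean of at least 1 CPM, were Vamp1, Gjb1 and Gjc3. Their root mean square differences from its centred log2 profile were 0.0741, 0.0909 and 0.0935. Gjb1 and Gjc3 encode connexins known from oligodendrocytes, and Vamp1 encodes a synaptic vesicle protein. For Lefty2 the closest genes were Zfp57, P2rx2 and Prnd (0.395 to 0.446), all low at 10 weeks and higher at day 7. For Lefty1 they were Msx1, Gem and Fkbp7 (0.137 to 0.181), and for Gm5069 they were Lactb2, Isoc2a and Stpg1 (0.0799 to 0.0949).

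At day 7 Tmem63a had 2.06, 2.42, 2.56 and 2.58 CPM in G34R animals, against 2.22, 1.63, 2.22 and 2.02 CPM in WT animals. The groups overlapped, with 3 of the 4 G34R animals above all WT animals, and the log2 fold change was 0.26 (95% interval -0.07 to 0.60, adjusted p = 0.775). The Tmem63a effect of G34R at 10 weeks minus that at day 7 was -0.50 (SE 0.15, adjusted p = 0.140). In WT cortex Tmem63a was 26.7 ± 2.56 CPM at 10 weeks (SD, n = 6) and 2.02 ± 0.276 CPM at day 7 (SD, n = 4), a 13.3-fold difference (adjusted p = 3.87e-19). The 7 oligodendrocyte markers were all higher at 10 weeks too, with a median log2 fold change of 4.23. None of 9 other genes of the TMEM63 family and related channels tested was called in a 10-week genotype comparison.

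Gm5069 was lower than WT in 7 of the 8 mutants at 10 weeks. It had 1.81, 1.98 and 1.78 CPM in G34R animals, 1.76, 1.60 and 1.75 CPM in G34V animals, and 2.72 and 1.81 CPM in G34W animals, against 2.42, 2.84 and 3.14 CPM (lowest, median, highest of 6) in WT animals. G34W replicate 1 lay within the WT range. Gm5069 fell by 0.59 in G34R on the log2 scale (SE 0.16, adjusted p = 0.0389), by 0.71 in G34V (SE 0.16, adjusted p = 0.0166) and by 0.54 over the mean of the substitutions (SE 0.12, adjusted p = 0.0103). In G34W the log2 fold change was -0.32 (SE 0.19, adjusted p = 0.400).

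The mean over the substitutions passed in every alternative for Gm5069, with adjusted p at most 0.0393, but the single substitutions did not. The G34R call was lost with runs of animal numbers as a block (adjusted p = 0.253), with the library set as a block (0.188), within that set (0.227), with no filter (0.0612) and without any 1 of 7 animals. Those animals were each of the 3 G34R animals (0.0816 to 0.160) and WT replicates 2, 4, 5 and 6 (0.0579 to 0.0741). The G34V call was lost with runs of animal numbers as a block (0.142), within the library set (0.0572) and without any of the 3 G34V animals (0.0552 to 0.0927). Itpkb, whose first exon Gm5069 overlaps, had log2 fold changes of 0.01 in G34R, -0.10 in G34V and 0.12 in G34W, none called.

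At day 7 Gm5069 had 0.823, 0.927, 1.304 and 0.994 CPM in G34R animals, against 1.56, 1.01, 1.20 and 1.47 CPM in WT animals. Of the 4 G34R animals, 3 lay below all WT animals. The log2 fold change, -0.36 (95% interval -0.84 to 0.12), was not called (adjusted p = 0.788), and the difference between ages, -0.23, was not either (adjusted p = 0.817). In WT cortex Gm5069 was 2.15-fold higher at 10 weeks than at day 7 (adjusted p = 2.33e-06).

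The remaining 6 neighbours, Acbd3, Lin9, Parp1, Itpkb, Psen2 and Coq8a, were not called in any of the 9 genotype comparisons. Acbd3, at 46.6 kb the nearest of the 10 to H3f3a, encodes a Golgi protein that recruits a lipid kinase. It had 31.7, 35.2 and 34.4 CPM in G34R animals, 35.0, 31.4 and 32.3 CPM in G34V animals, and 30.4 and 31.3 CPM in G34W animals, against 30.04, 31.9 and 35.2 CPM (lowest, median, highest of 6) in WT animals. The 95% intervals of its fold change over WT at 10 weeks ran from 0.951 to 1.14 in G34R, 0.927 to 1.11 in G34V and 0.854 to 1.06 in G34W. At day 7 it averaged 32.9 ± 0.564 CPM in G34R and 33.9 ± 2.56 CPM in WT (SD, n = 4 each).

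Lin9, 110 kb from H3f3a, encodes a subunit of the MuvB complex that times cell-cycle genes. It averaged 4.28 ± 0.248 CPM in G34R (n = 3), 4.72 ± 0.878 CPM in G34V (n = 3) and 4.36 ± 0.905 CPM in G34W (n = 2), against 4.21 ± 0.436 CPM in WT (SD, n = 6) at 10 weeks. Its widest interval against WT, in G34W, ran from 0.815 to 1.32 as a fold. Of 13 other genes of the MuvB and DREAM complexes tested, Mybl2 rose in G34R by 1.55 on the log2 scale (adjusted p = 0.0499) and in G34V by 1.90 (adjusted p = 0.0173), at 0.386 and 0.493 CPM against 0.136 CPM in WT (means). Tfdp2 fell by 0.17 over the mean of the substitutions (adjusted p = 0.0407), and the other 11 were not called against WT. Of all genes tested, 5.61% were called in G34R, 4.25% in G34V and 6.39% over the mean of the substitutions.

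Parp1, at 200 kb, encodes the poly(ADP-ribose) polymerase that senses DNA breaks. It had 84.1, 89.3 and 96.3 CPM in G34R animals, 98.8, 99.8 and 90.9 CPM in G34V animals, and 67.4 and 85.4 CPM in G34W animals, against 83.0, 88.5 and 101 CPM (lowest, median, highest of 6) in WT animals. G34W replicate 1 was the lowest of the 14 animals, and replicate 2, labelled female, lay within the WT range. The log2 fold change in G34W, -0.23 (SE 0.09, adjusted p = 0.202), passed with the sex label as a covariate (-0.42, adjusted p = 0.0424) and without G34W replicate 2 (-0.42, adjusted p = 0.0414), which rest on 1 G34W male. At day 7 Parp1 averaged 107 ± 5.30 CPM in G34R and 108 ± 3.60 CPM in WT (SD, n = 4 each). Among 14 other genes of the PARP family and of single-strand break repair, Parp3 rose by 0.91 in G34R (adjusted p = 0.000593). Polb, a repair polymerase, rose there by 0.23 (adjusted p = 0.0281), and none of the 14 fell against WT. In G34R 5.61% of all genes tested were called.

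Itpkb encodes a kinase that phosphorylates inositol trisphosphate, a calcium-releasing messenger. At 10 weeks it averaged 29.3 ± 1.82 CPM in G34R (n = 3), 27.1 ± 2.44 CPM in G34V (n = 3) and 31.7 ± 1.11 CPM in G34W (n = 2), against 29.2 ± 2.93 CPM in WT (SD, n = 6). Its paralog Itpka, on another chromosome, did fall: it averaged 135 ± 2.80 CPM in G34R, 142 ± 3.96 CPM in G34V and 134 ± 1.03 CPM in G34W, against 168 ± 11.1 CPM in WT. The Itpka log2 fold changes were -0.32 (adjusted p = 0.00167), -0.24 (adjusted p = 0.0165) and -0.33 (adjusted p = 0.0182) in that order. Of the 14 inositol phosphate kinases and phosphatases tested, Ip6k3 rose in G34R by 1.11 (adjusted p = 0.00672), and the other 12 were not called against WT. The called share of all genes tested was 5.61% in G34R, 4.25% in G34V and 1.61% in G34W.

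Psen2 encodes a catalytic subunit of gamma-secretase, the protease that cuts amyloid precursor protein and Notch. It averaged 14.1 ± 0.0609 CPM in G34R (n = 3), 12.8 ± 1.14 CPM in G34V (n = 3) and 13.4 ± 0.532 CPM in G34W (n = 2), against 13.97 ± 1.31 CPM in WT (SD, n = 6) at 10 weeks. At day 7 it averaged 13.6 ± 0.839 CPM in G34R and 14.7 ± 0.722 CPM in WT (SD, n = 4 each), with 3 of 4 G34R animals below all WT animals (adjusted p = 0.792). Of 12 other genes of gamma-secretase and its substrates, Aph1b, a structural subunit, fell by 0.28 in G34R on the log2 scale (adjusted p = 0.00176). It fell by 0.17 over the mean of the substitutions (adjusted p = 0.0115). The called shares of all genes tested were 5.61% in G34R and 6.39% over the mean.

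Coq8a, at 601 kb the farthest of the 10, encodes a mitochondrial protein needed to make coenzyme Q. It averaged 40.1 ± 2.06 CPM in G34R (n = 3), 42.7 ± 1.75 CPM in G34V (n = 3) and 41.1 ± 4.24 CPM in G34W (n = 2), against 39.4 ± 1.72 CPM in WT (SD, n = 6) at 10 weeks. At day 7 it averaged 11.3 ± 1.25 CPM in G34R and 11.004 ± 0.298 CPM in WT (SD, n = 4 each). None of 11 other genes of coenzyme Q synthesis was called in a genotype comparison, nor was any of the 11 genes listed with ACBD3.

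**Figure D3:**
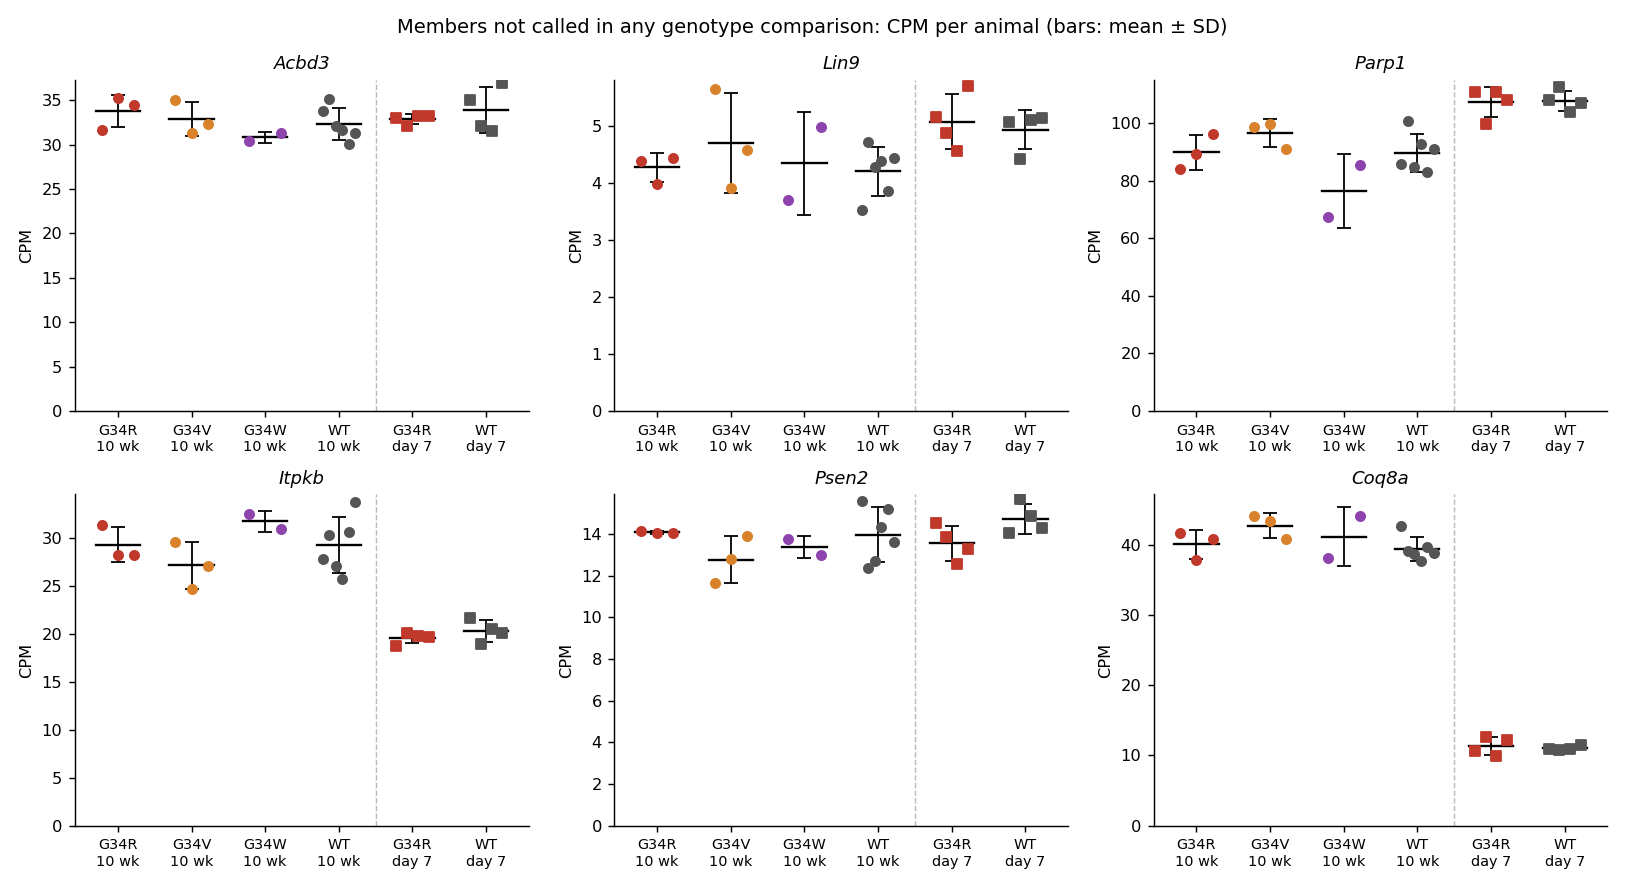
CPM per animal of the 6 neighbours not called in any genotype comparison, by genotype and age (wk, weeks), with points for animals, bars for the mean ± SD and linear axes from 0. The mutants and WT overlap in each gene and at both ages, and Coq8a is higher at 10 weeks than at day 7 in both genotypes.

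Counted together, 2 of the 10 neighbours fell in G34R at 10 weeks (Lefty2 and Gm5069), where 5.61% of the 21274 genes tested were called and 2.66% were lower. In G34V 3 fell (Lefty2, Gm5069 and Tmem63a), against 4.25% called and 2.68% lower. In G34W 1 fell (Lefty1), against 1.61% called and 1.05% lower. Over the mean of the substitutions those 4 fell, against 6.39% called and 3.93% lower, and none of the 10 rose in any 10-week comparison with WT. Since the 10 were chosen with earlier results known, their counts are a description. Of the 17 other genes tested within 1 Mb, 1 was called over the mean of the substitutions. The median log2 fold change of the 10 was 0.00 in G34R, -0.12 in G34V and -0.15 in G34W, while that of all genes tested lay within 0.01 of 0 in each. These comparisons share the 6 WT animals.

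At day 7 none of the 10 was called in edgeR, DESeq2 or limma-voom, where 0.308% of 20451 genes were called in edgeR, and none had an unadjusted p below 0.05. The contrast of the G34R effect at 10 weeks minus that at day 7 called 1 of the 10, Lefty2, which was lower, against 1.16% of 22417 genes called and 0.602% lower. Between substitutions, G34R against G34W called 1, Lefty1, which was higher, against 1.88% of genes called and 0.945% higher. G34R against G34V called none in edgeR, DESeq2 or limma-voom, against 0.23% of genes, with 1 of the 10 at an unadjusted p below 0.05, and G34V against G34W called none in these, against 0.15%, with 2.

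Of the 5 neighbours nearest to H3f3a, Lefty2, Lefty1 and Tmem63a were called in a genotype comparison, and Acbd3 and Lin9 were not. Lefty2 starts 79.2 kb, Lefty1 121 kb and Tmem63a 128 kb above H3f3a, and Gm5069 ends 470 kb below it. Between Gm5069 and H3f3a, Itpkb (376 kb), Parp1, Lin9 and Acbd3 were uncalled. Of the 25 other genes within 1 Mb that had a row, 17 were tested at 10 weeks. In edgeR none of the 17 was called in G34R, with 0 at an unadjusted p below 0.05, or in G34W, with 5, and 1 was called in G34V. That gene, Ahctf1, which encodes a protein of the nuclear pore, lies 997 kb away and rose by 0.28 in G34V on the log2 scale (SE 0.06, adjusted p = 0.0123) and by 0.18 over the mean of the substitutions (adjusted p = 0.0366). In G34V none of the other genes was called with the library set or runs of animal numbers as a block, within the library set, or without G34V replicate 1 or 2. Over the mean of the substitutions none was called with the sex label as a covariate or without any 1 of 9 animals. At day 7 none of 18 tested was called, with 2 at an unadjusted p below 0.05. The antisense gene within Tmem63a, 2210411M09Rik, had log2 fold changes of -0.20 in G34R, -0.52 in G34V and -0.24 in G34W, none called (adjusted p = 0.617, 0.142 and 0.583).

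**Figure D4:**
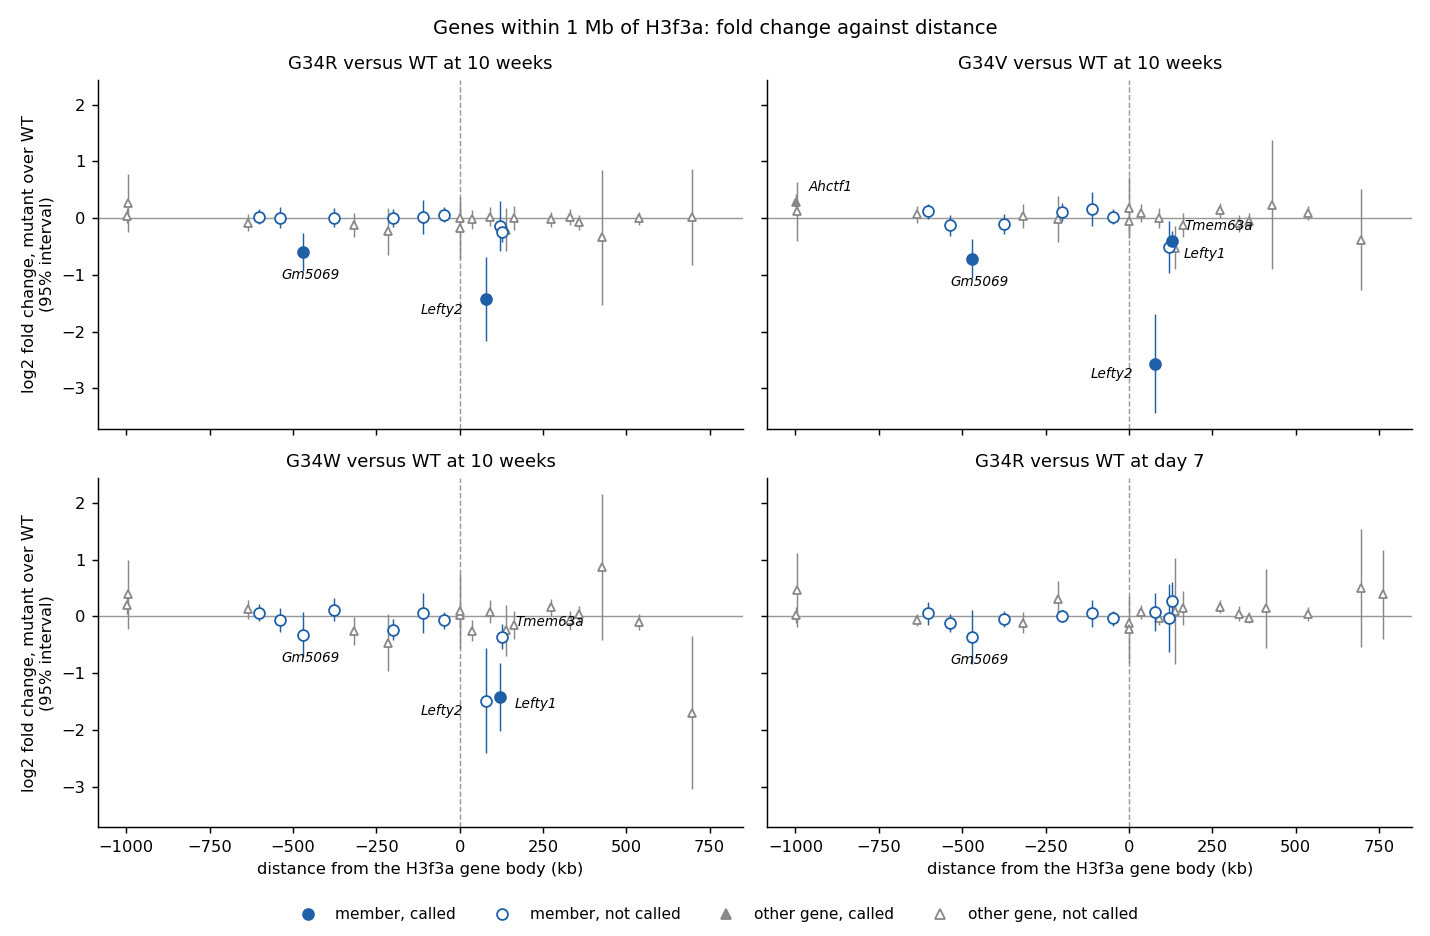
Log2 fold change over WT (points, with 95% intervals) of each tested gene within 1 Mb of H3f3a against its distance from the H3f3a gene body in kb, negative at lower coordinates, for G34R, G34V and G34W at 10 weeks and G34R at day 7. Filled circles mark called neighbours, open circles uncalled ones, and triangles other genes. Lefty2 at 79.2 kb reaches -2.56 in G34V, while most other genes lie near 0. In G34W the triangles run from -1.70 to 0.873, none of them called.

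Age moved more of the neighbours than genotype did, as it did for genes in general. In WT cortex 7 of the 10 were called between 10 weeks and day 7, where 67.7% of all genes tested were, 33.3% higher and 34.4% lower at 10 weeks. Tmem63a, Coq8a, Gm5069, Lefty1 and Itpkb were higher at 10 weeks, by 3.73, 1.84, 1.10, 1.07 and 0.53 on the log2 scale. Lefty2 and Parp1 were lower at 10 weeks, by log2 fold changes of -3.86 and -0.26. Lin9 (-0.23, adjusted p = 0.0787), Psen2 (-0.08, adjusted p = 0.347) and Acbd3 (-0.07, adjusted p = 0.276) were not called. Age at 10 weeks goes with male sex in WT, since only the day-7 group held females. Age also goes with the run of animal numbers, since the day-7 animals formed a run of their own. Effects of age and of that run cannot be told apart.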

How the data were processed

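Gene counts were made by the authors and deposited as 1 table of raw counts per gene and library. Per the submitters' processing notes, Trimmomatic 0.32, STAR 2.3.0e, featureCounts 1.4.4 and bedtools 2.27.1 were used with the mm10 build. The sources used here give neither the annotation release nor the strand setting. The library labels of the table matched all 23 libraries. Per the labels, RNA was extracted from pulverised cortex with a column kit and depleted of ribosomal RNA.

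From these counts, edgeR 4.0.16 (R 4.3.3) fitted robust quasi-likelihood models with TMM scaling after filterByExpr: 14 animals at 10 weeks, 8 at day 7 with a sex term, and 22 for age. Genes of the Y chromosome, Xist and Tsix were left out. P-values were adjusted by Benjamini-Hochberg over all genes of a fit, with a threshold of 0.05. SE and 95% intervals are those of the model. CPM are on 1 TMM scale over 22 animals. Alternatives used DESeq2 1.42.0 and limma 3.58.1, other scalings, filters, blocks and animals left out in turn. The fit was tested on simulated data.

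The members and gene lists were chosen with earlier results of these data known. Named beside the members are genes within 1 Mb that passed, up to 3 list genes past the threshold per comparison, and the 3 genes nearest in profile, by root mean square difference of mean log2(CPM + 0.1) centred over 6 groups. Positions are from GENCODE M21, whose identifiers matched 37607 of the 39017 genes. A RefSeq promoter window was found for 5 of the 10 members. Some genes and sequences are not reported here.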

Additional observations from a re-analysis of the deposited data

Results flagged for a closer look

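Among 33 sets of values screened, each of 1 gene in 1 group, 3 held an animal apart from the rest of its group. The sets do not cover every gene in all 6 groups, so an animal apart elsewhere would not be listed. Chance sets 1 apart in about 1 of 20 sets, and the sets share animals. WT replicate 1 at 10 weeks had the highest Tmem63a, 31.7 CPM. WT replicate 2 at day 7 had the lowest Lin9 of its group, 4.44 CPM. WT replicate 4 at day 7 had the highest Coq8a of its group, 11.4 CPM.

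The effects of 2 substitutions on Lefty1 differed, G34R being higher than G34W by 1.27 on the log2 scale. The G34R effect on Lefty2 differed between ages, the effect at 10 weeks minus that at day 7 being -1.47 on the log2 scale.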

How the results depend on the processing

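Of 2245 gene results under alternatives, 2183 kept their direction or stayed uncalled and on the same side of the threshold, 53 were no longer called, 8 became called and 1 reversed. Of 1794 uncalled in both, 125 had the other sign. The reversal was Lefty1 with age, at -2.33 when summed with Lefty2. The cause of the other changes was not tested.

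In G34R the count of called neighbours was 1 with a 1 CPM filter, with no filter, with the library set as a block and with runs of animal numbers as a block, 0 within the library set, and 0 to 2 with 1 animal left out. In G34V it was 1 with runs as a block and 1 to 3 with 1 animal left out. In G34W it was 3 with DESeq2, 0 with limma-voom and with runs as a block, and 0 to 1 with 1 animal left out. G34R against G34W called 0 with the library set or runs as a block, limma-voom, only the groups compared, the sex label, and every animal left out. G34V against G34W called 1 with the sex label and 0 to 1 with 1 animal left out. The difference between ages called 0 with limma-voom and with only males, and 0 to 1 with 1 animal left out.

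Of other genes near H3f3a, G34R called 1 within 2 Mb. G34V called 0 within 500 kb, with either block and within the library set, and 0 to 1 with 1 animal left out. The mean of the substitutions called 0 with the sex label and within 500 kb, 2 within 2 Mb, and 0 to 1 with 1 animal left out. Age called 22 within 2 Mb.

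Over all genes, counts ranged from 693 to 1661 in G34R (1193 as reported), 341 to 1328 in G34V (905), 15 to 916 in G34W (343), 1068 to 1914 over the mean (1360), 3 to 281 for G34R against G34V (49), 6 to 1118 for G34R against G34W (400), 4 to 309 for G34V against G34W (32), 5 to 211 at day 7 (63) and 117 to 461 for the difference between ages (261). The library sets were chosen after seeing the data, and the block by set did not sum the libraries of WT replicate 3. Library sets gave no within-set value for the mean of the substitutions, or for G34R against G34V or G34W. No paired analysis was possible because the labels give the groups no shared replicate numbers, and runs of neighbouring animal numbers were used as a block in its place. Depth limits Lefty2 most, with 5 to 28 reads per mutant at 10 weeks.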
